A study of Bos taurus with 8 samples.

Results

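Nuclear receptors are transcription factors that bind small fat-soluble molecules, and 43 of their genes were followed here in the liver of cattle given an antibody against bacterial lipopolysaccharide (LPS). Members were chosen by name: a probe that is no control spot counted as a member when its gene name in the array files equalled 1 of the 43 listed symbols. This gave 41 genes with 1 probe each, of 14952 gene names on the array, while NR0B2 and RARB had no probe under these names. The rule used names alone, but the list of symbols was drawn up with earlier results of these data known.

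A typical nuclear receptor holds a zinc-finger domain that reads DNA and a pocket that takes up its ligand. Many pair with a retinoid X receptor (RXR) on DNA and exchange corepressors for coactivators when the ligand arrives. In liver they sense bile acids, oxysterols, fatty acids, retinoic acid, thyroid hormone, glucocorticoids and foreign compounds, and they set the transcription of genes for lipid, glucose and drug metabolism. Several are known to be restrained in liver during the response to LPS.

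The samples were liver RNA of 4 fistulated Holstein bulls aged 5 to 6 months, numbers 19, 20, 23 and 24, each hybridised to 1 one-colour array at each of 2 doses, which gave 4 arrays per dose. Every animal in both groups ate hay for 11 days, then a diet of 50% concentrate and 50% soybean flakes for 2 days to bring on subacute ruminal acidosis, then hay for 1 day. During these 14 days egg-yolk immunoglobulin against LPS went into the rumen once a day, at 0 g (control) or 4 g per head, and the samples are labelled as taken 2 days after the challenge. Each animal was to receive every dose in turn, as a Latin square lays out. Since the labels name no period, dose and period cannot be told apart within an animal. The 2 g group was not analysed here, and no unchallenged liver serves as a reference. The comparison of 4 g with 0 g asks whether an antibody in the rumen goes with another level of receptor transcript in liver after the challenge.

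A level is the log2 signal of a probe less that array's 75th percentile, so 0 marks that percentile and 1 unit is a doubling. Levels of different probes cannot be ranked against each other, since probes differ in how well they bind. Between 64.5% and 80.4% of probes were well above background per array. The labels name liver, while the extraction protocol in them names rumen epithelium. All 8 of 8 hepatocyte markers were well above background on every array, with mean levels of 4.74 to 5.25. Some libraries stand apart. Animal 19 at 4 g and animal 20 at 0 g gave dim arrays, with 75th percentiles of 125.8 and 126.3 signal units against 218.0 to 311.7 on the others. The 0 g array of animal 23 carried pancreatic acinar transcripts at high levels, with all 8 of 8 markers well above background at a mean of 7.60. Means elsewhere were −3.86 to −2.13. Of the 8 markers, 7 were well above background on each other array of animals 23 and 24, and 4 on each array of animals 19 and 20. The 0 g array of animal 19 had a mean of −3.33 over 7 squamous epithelium markers, 4 of them well above background, against −5.89 to −4.89 elsewhere. Finally, 14 probes fell into separate high and low sets that did not follow the dim arrays. Both arrays of an animal lay in the same set for 13 of these 14 probes in animal 19 and in animal 20, but for 4 in animal 23 and 5 in animal 24. In 7 of the 14, among them GIMAP4, GIMAP6 and IL20RA, the 0 g arrays of animals 23 and 24 lay together and their 4 g arrays lay in the opposite set. The animal and the dose of the 4 libraries labelled as animals 23 and 24 are therefore in doubt. Their values and differences are given as labelled, and for some genes values are also given for animals 19 and 20 alone. That pair holds both dim arrays, 1 at each dose.

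Of the 41 receptors, 24 were well above background on all 8 arrays and 4 more on 6 or 7, and these 28 were tested. The 4 were NR1H2 and THRB (7 arrays each), NR3C2 and NR6A1 (6 arrays each). Another 6 reached that level on 1 to 3 arrays: ESR2 and NR4A3 on 1, NR4A2 and NR5A1 on 2, ESRRB and PPARD on 3. The remaining 7 did so on 0 arrays: the estrogen receptor ESR1, its orphan relative ESRRG, the atypical corepressor NR0B1, the photoreceptor factor NR2E3, the progesterone receptor PGR, the circadian orphan RORB and the muscle and brain retinoid partner RXRG. No array-to-array difference is given for these 13 except where a single array stood out. Since the samples are bulk tissue, fewer cells of a type and less RNA per cell cannot be told apart in any of these values.

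The sequences of 7 probes are shown, 5 because they lie in parts of the protein that define the family, and those of RXRA and NR1H3 because these receptors had the widest spreads of the difference between animals. Positions refer to the cattle assembly UMD 3.1. The glucocorticoid receptor probe lies at chr7:56258082-56258141 (minus strand). The others, all on the plus strand, lie at chr16:80769127-80771387 (NR5A2), chr27:41752474-41755508 (THRB), chr19:41244452-41244511 (RARA), chr19:41035714-41035772 (THRA), chr11:106014760-106014819 (RXRA) and chr15:78326649-78329681 (NR1H3). Each has a reading frame without a stop codon. NR5A2, THRB and NR1H3 span 2261, 3035 and 3033 bases of genome and so cross an exon junction. Capitals mark a stretch of 21 bases that codes for the end of the zinc-finger domain in the first 3, and a stretch of 14 bases that codes for part of a helix lining the ligand pocket in the next pair. The last pair holds neither stretch.
NR3C1: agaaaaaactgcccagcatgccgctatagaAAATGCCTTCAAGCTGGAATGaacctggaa
NR5A2: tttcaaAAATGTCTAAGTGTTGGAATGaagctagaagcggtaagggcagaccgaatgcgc
THRB: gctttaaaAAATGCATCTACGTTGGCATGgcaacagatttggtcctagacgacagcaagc
RARA: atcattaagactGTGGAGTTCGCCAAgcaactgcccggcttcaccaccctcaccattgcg
THRA: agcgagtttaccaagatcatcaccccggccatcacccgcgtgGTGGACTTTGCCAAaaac
RXRA: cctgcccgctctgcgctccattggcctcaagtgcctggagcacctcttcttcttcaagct
NR1H3: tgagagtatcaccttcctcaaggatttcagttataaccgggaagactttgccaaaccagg

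The zinc-finger stretch, whose bases differ between the marked probes, was found in 3 of the 15008 probes of the array, which is 0.0200%. All 3 stand for receptors. The helix stretch, searched as GTGGANTTNGCCAA, was found in 2 of 15008, which is 0.0133%, and both stand for receptors. Its open positions (N) are those at which the RARA and THRA probes differ, so a match to these 2 was fixed in advance. The counts say where the marked stretches lie and do not test how specific they are to receptors. On the other strand 0 probes held either stretch, and the searches do not overlap. Between any pair of the 41 receptor probes the longest shared run was 12 bases, in NR1H3 and THRA, of a probe length of 60. A stop-free frame was present in 37 of the 41 probes, and 6 of the 41 spanned more than 60 bases of genome: ESR1, ESRRB, ESRRG, NR1H3, NR5A2 and THRB.

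No receptor passed the test of the difference between doses. In the limma fit, blocked by animal and adjusted (Benjamini-Hochberg) over 10985 tested probes, 0 of 28 receptors had an adjusted p under 0.05 (smallest adjusted p = 1), as did 0% of all probes (smallest adjusted p = 0.614). At an unadjusted p under 0.05 there were 0 receptors, against 120 probes or 1.09% of all, with 39 of them above and 81 below their 0 g level. The smallest unadjusted p of a receptor was 0.114, for RARG. At 4 g 13 receptors were higher and 15 lower, with a median difference of −0.02, while 55.1% of all probes were higher, with a median of 0.03. The median size of a difference was 0.12 for receptors and 0.14 for all probes, and 27 of 28 receptors (96.4%) differed by less than 0.5, as did 93.1% of all probes.

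With the labels taken as given, the data limit how large a difference could be. The animal and dose of 4 libraries in this fit are in doubt, as said above. If those labels are wrong, the intervals do not bound the difference between doses. The 95% confidence interval of the within-animal difference had a median half-width of 0.74 for receptors and 0.70 for all probes. It lay wholly between −1 and 1 for 18 of 28 receptors (64.3%), the same share as over all probes (64.3%), so that a doubling, or its inverse, lay outside the interval for these 18. For the other 10 it reached beyond 1 unit on at least 1 side. The narrowest SD over 4 arrays was 0.06 and the widest 1.31.

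**Figure D1:**
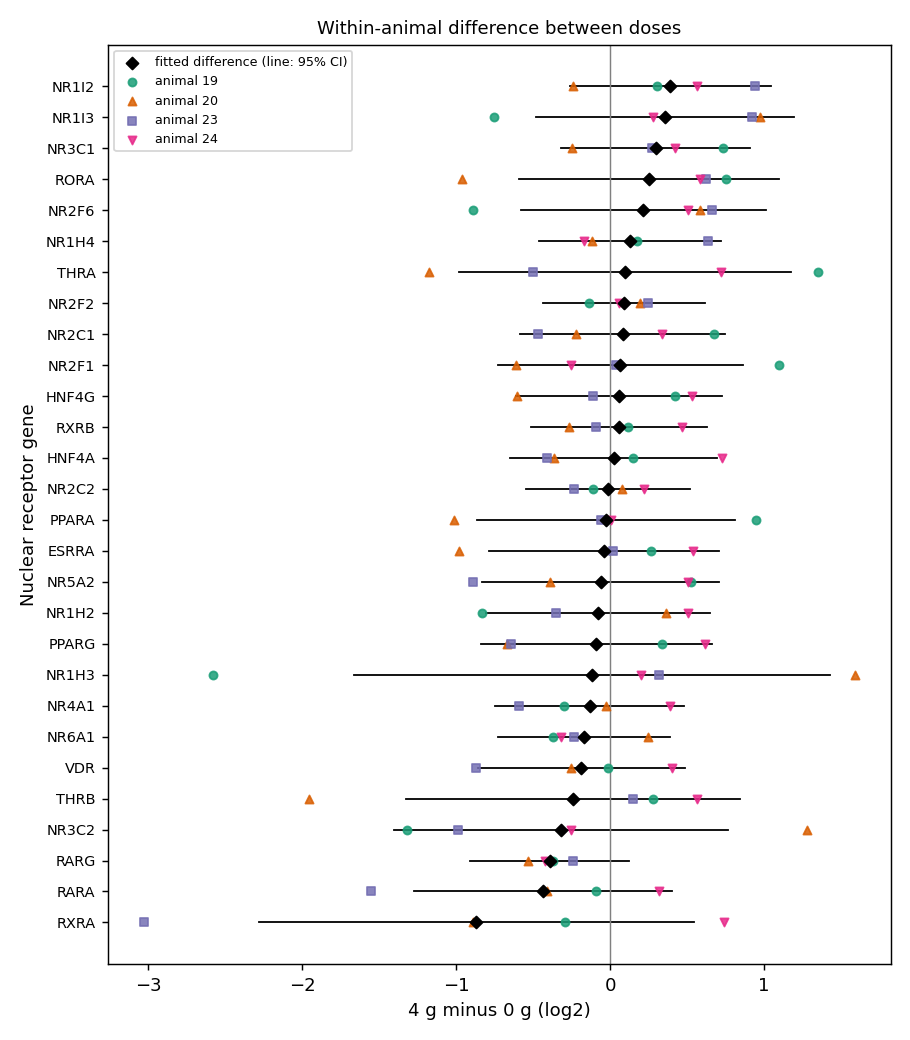
Difference of each of 28 tested receptors between 4 g and 0 g on the log2 scale (horizontal axis), 1 receptor per line, ordered by the fitted difference. Diamonds are fitted differences, lines their 95% confidence intervals, and coloured symbols the difference in each of 4 animals. All 28 intervals include 0, the values of NR1H3 and RXRA spread widest, and those of RARG all lie left of 0.

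Lipid and bile acid sensors came to 5 tested genes, 1 higher and 4 lower at 4 g, with differences of −0.12 to 0.13. NR1H4 encodes FXR, the bile acid receptor. In animals 19, 20, 23 and 24 it stood at 0.46, −0.04, −0.35 and 0.23 at 0 g and at 0.63, −0.15, 0.28 and 0.06 at 4 g. The doses overlapped, and the difference was 0.13 (SE 0.25, 95% CI −0.46 to 0.72). PPARA, the fatty acid sensor that drives oxidation and ketone production, stood at −3.70, −2.61, −3.37 and −3.42 at 0 g and at −2.75, −3.63, −3.43 and −3.41 at 4 g. Its high values were on the 2 dim arrays, the other 6 lay within −3.70 and −3.37, and the difference was −0.03 (95% CI −0.87 to 0.81). PPARG, known for fat storage, had means of −1.96 ± 0.60 (SD, n = 4) and −2.04 ± 0.11 (SD, n = 4). NR1H2, which encodes the oxysterol receptor LXR-beta, had means of −4.39 ± 0.44 and −4.47 ± 0.23 and cleared the background on 3 arrays at 0 g and all 4 arrays at 4 g. PPARD was well above background on 2 arrays at 0 g and 1 at 4 g and was not tested.

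NR1H3, which encodes LXR-alpha, the oxysterol receptor that promotes fatty acid synthesis and cholesterol export, had the widest spread of differences between animals of all 28. It stood at 1.04, −0.87, 0.51 and 0.83 at 0 g and at −1.53, 0.72, 0.82 and 1.02 at 4 g. The 2 values below 0 were those of the dim arrays, and the other 6 lay between 0.51 and 1.04. The difference was −2.58 in animal 19, 1.59 in animal 20, 0.32 in animal 23 and 0.20 in animal 24. The fitted difference of −0.12 (SE 0.64, 95% CI −1.66 to 1.43) therefore averages over opposite signs. Without the 2 dim arrays and with no animal block it was 0.06, and without animal 19 or animal 20 it was 0.70 or −0.69. With array brightness as a covariate it was 0.12. The part of array brightness in this receptor's values was not tested beyond these fits.

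Both xenobiotic sensors were higher at 4 g in 3 of 4 animals, without passing the test. NR1I2 encodes PXR, which answers to drugs, bile acids and other foreign or toxic compounds. It stood at 1.62, 1.58, 0.71 and 1.25 at 0 g and at 1.92, 1.34, 1.65 and 1.81 at 4 g. The difference of 0.39 (SE 0.27, 95% CI −0.26 to 1.05, limma adjusted p = 1) was −0.24 in animal 20 and 0.30, 0.94 and 0.56 in animals 19, 23 and 24. Its lowest value was on the 0 g array of animal 23, the array with high acinar transcripts. In animals 19 and 20 alone the difference was 0.03, and in animals 23 and 24 it was 0.75. NR1I3 encodes CAR, a partner in the same response that needs no ligand to be active. It stood at 1.22, −0.11, 0.39 and 0.72 at 0 g and at 0.46, 0.87, 1.31 and 1.00 at 4 g. Its difference of 0.36 (SE 0.35, 95% CI −0.48 to 1.20) was −0.76 in animal 19 and positive in the others, and it was 0.11 in animals 19 and 20 alone.

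RXRA encodes the common partner of PPAR, LXR, FXR, PXR, CAR and the retinoic acid, thyroid hormone and vitamin D receptors, and it had the largest fitted difference of the 28. It stood at −2.58, −2.61, −0.52 and −3.64 at 0 g and at −2.88, −3.50, −3.55 and −2.90 at 4 g. The single high value, on the 0 g array of animal 23, lay 2.07 above the next, and the other 7 arrays overlapped between doses. The difference of −0.87 (SE 0.59, 95% CI −2.28 to 0.55, limma adjusted p = 1) was −3.03 in animal 23, 0.74 in animal 24 and −0.30 and −0.89 in animals 19 and 20. Without that array and with no animal block it was −0.26, without animal 23 it was −0.15, and with normexp it was −0.45. RXRB, the second widespread partner, had means of 2.46 ± 0.32 (SD, n = 4) at 0 g and 2.51 ± 0.21 (SD, n = 4) at 4 g, with a difference of 0.06 (95% CI −0.51 to 0.63).

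Receptors for hormones and vitamins came to 7 tested genes, 2 higher and 5 lower at 4 g. RARG, a retinoic acid receptor, was the only receptor of the 28 with the same sign in all 4 animals and the only 1 whose doses did not overlap. It stood at −0.79, −0.44, −0.86 and −0.78 at 0 g and at −1.17, −0.98, −1.10 and −1.20 at 4 g. The difference was −0.37, −0.54, −0.24 and −0.43 in animals 19, 20, 23 and 24, and −0.39 when fitted (SE 0.21, 95% CI −0.91 to 0.12, limma adjusted p = 1). Among all probes 5.25% had the same sign in 4 of 4 animals and 0.611% had doses that did not overlap, and a single receptor is too few to set apart from either background. By its p RARG ranked 368th of 10985 probes. Across 18 settings, the 17 alternatives included, its difference lay between −0.45 and −0.24, the latter with normexp background correction. Stellate cell and fibroblast markers, 6 to 8 of 8 well above background per array, were also lower at 4 g in all 4 animals, with mean levels of 0.05, 0.85, 0.55 and −0.28 at 0 g and −0.28, 0.16, 0.03 and −0.61 at 4 g. So were endothelial markers, 6 or 7 of 7 well above background, with means of −1.48, −1.17, −1.32 and −1.50 at 0 g and −1.93, −1.22, −1.72 and −1.68 at 4 g. Both sets overlapped between doses. Means of the other marker sets (hepatocyte, Kupffer cell and macrophage, T cell, bile duct, acinar and squamous) rose in some animals and fell in others. NR2F2, a receptor also abundant in vessel walls and stroma, was higher at 4 g in 3 of 4 animals. The part of stellate and endothelial cells in the difference of RARG was not tested.

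RARA, the other retinoic acid receptor with a probe, stood at −2.84, −2.69, −1.54 and −3.41 at 0 g and at −2.94, −3.10, −3.10 and −3.09 at 4 g. Its value on the 0 g array of animal 23 lay 1.15 above the next, as with RXRA. The difference of −0.44 (SE 0.35, 95% CI −1.27 to 0.40) was −0.08 without that array (no block), −0.06 without animal 23 and −0.26 with normexp. VDR, the vitamin D receptor, had means of −3.70 ± 0.52 (SD, n = 4) and −3.89 ± 0.27 (SD, n = 4) and a difference of −0.19 (95% CI −0.86 to 0.49).

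NR3C1, the glucocorticoid receptor through which cortisol raises gluconeogenesis and dampens inflammation, stood at 1.50, 2.14, 1.54 and 1.44 at 0 g. At 4 g it stood at 2.23, 1.89, 1.81 and 1.87. The 2 highest of these 8 values were those of the dim arrays. The difference of 0.30 (SE 0.25, 95% CI −0.32 to 0.91, limma adjusted p = 1) was positive in 3 of 4 animals and −0.25 in animal 20. NR3C2, the mineralocorticoid receptor, stood at −5.32, −5.81, −3.34 and −4.82 at 0 g and at −6.63, −4.53, −4.32 and −5.07 at 4 g. Its difference of −0.32 (95% CI −1.40 to 0.77) was 0.18 without the 0 g array of animal 23 and with no block, and −0.17 with normexp. It cleared the background on 3 of 4 arrays at each dose.

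Both thyroid hormone receptors had their highest values on the dim arrays. THRA stood at −1.86, −1.08, −2.30 and −2.48 at 0 g and at −0.51, −2.26, −2.81 and −1.75 at 4 g. Its difference was 1.35 in animal 19 and −1.18 in animal 20, and 0.10 when fitted (SE 0.45, 95% CI −0.98 to 1.18). THRB, the main thyroid hormone receptor of liver, cleared the background on all 4 arrays at 0 g and 3 at 4 g. It stood at −4.78, −4.19, −5.27 and −5.47 at 0 g and at −4.50, −6.14, −5.12 and −4.91 at 4 g. The difference of −0.24 (SE 0.45, 95% CI −1.33 to 0.84) was −1.96 in animal 20 and positive in the other 3, and it was 0.33 without animal 20.

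ESR2, an estrogen receptor, was well above background on a single array, the 0 g array of animal 23, where it stood at −2.92. No fold change is given for it, since its bound lay under 1.

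**Figure D2:**
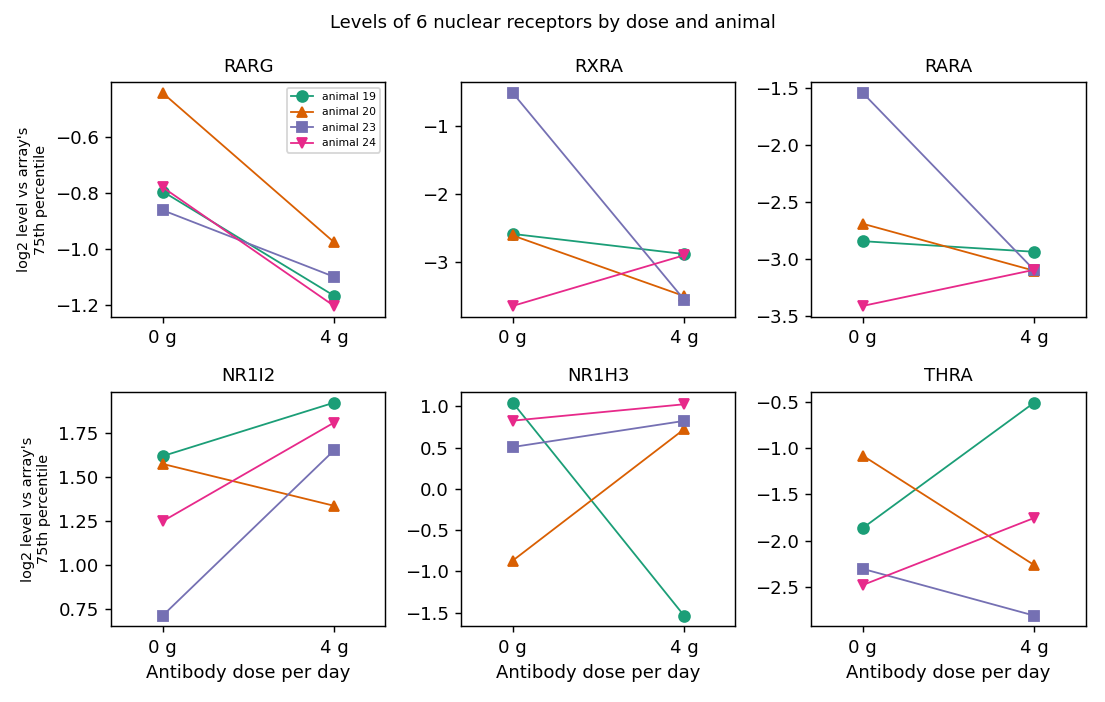
Log2 level above or below the array's 75th percentile (vertical axis, its range differing between panels) at 0 g and 4 g (horizontal axis) for 6 receptors, with 1 line per animal and 1 point per array. RARG is lower at 4 g in 4 of 4 animals, a single 0 g array of animal 23 stands high for RXRA and RARA, and for NR1H3 and THRA the lines of animals 19 and 20 run in opposite directions.

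HNF4 factors, COUP transcription factors and their relatives came to 6 tested genes, 5 higher and 1 lower at 4 g, with differences of −0.06 to 0.22. HNF4A, the master regulator of hepatocyte identity, stood at −2.64, −1.97, −3.05 and −3.00 at 0 g and at −2.50, −2.33, −3.45 and −2.27 at 4 g, a difference of 0.03 (SE 0.28, 95% CI −0.65 to 0.70). The sign was kept in 11 of 18 settings and turned in the others, for example with normexp background correction, where the difference was −0.07. HNF4G, its close relative, had means of −1.64 ± 0.38 (SD, n = 4) and −1.58 ± 0.26 (SD, n = 4). NR5A2 encodes LRH-1, which with HNF4A supports bile acid synthesis, and its means were −3.85 ± 0.59 and −3.91 ± 0.53.

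NR2F2, the orphan COUP-TFII that is also abundant in vessel walls and stroma, had the narrowest range over the 8 arrays. It stood at 2.39, 2.19, 2.06 and 2.32 at 0 g and at 2.26, 2.39, 2.31 and 2.38 at 4 g, a difference of 0.09 (SE 0.22, 95% CI −0.44 to 0.62). NR2F1, COUP-TFI, stood at −0.38, 0.77, −0.44 and −0.07 at 0 g and at 0.72, 0.15, −0.40 and −0.32 at 4 g, and its 2 highest values were on the dim arrays. NR2F6, an orphan of the same branch, stood at 3.24, 2.14, 2.60 and 2.90 at 0 g and at 2.35, 2.73, 3.27 and 3.41 at 4 g, with its 2 lowest values on the dim arrays. Its difference of 0.22 (95% CI −0.58 to 1.01) was −0.15 in animals 19 and 20 alone and 0.59 in animals 23 and 24. NR5A1, the steroidogenic factor of adrenal and gonad, was well above background on 2 arrays.

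Among the other orphans 6 were tested, 2 higher and 4 lower at 4 g. RORA, which helps set circadian and lipid genes, stood at −2.04, −0.92, −2.43 and −2.0 at 0 g and at −1.29, −1.88, −1.80 and −1.42 at 4 g. It was higher at 4 g by 0.75, 0.62 and 0.59 in animals 19, 23 and 24 and lower by 0.96 in animal 20 (fitted difference 0.25, 95% CI −0.59 to 1.09, and 0.05 with normexp). NR4A1, an immediate early gene, stood at 0.73, 0.78, 0.75 and 0.19 at 0 g and at 0.43, 0.75, 0.15 and 0.58 at 4 g (difference −0.13, 95% CI −0.75 to 0.48). Its relatives NR4A2 and NR4A3 were well above background on 2 arrays and 1 array. ESRRA, a partner of the coactivator PGC-1alpha in mitochondrial genes, had means of 1.61 ± 0.28 (SD, n = 4) and 1.57 ± 0.39 (SD, n = 4). The testicular receptors NR2C1 and NR2C2 had differences of 0.08 (95% CI −0.58 to 0.75) and −0.01 (95% CI −0.55 to 0.52). NR6A1, the germ cell nuclear factor, had a difference of −0.17 (95% CI −0.73 to 0.39).

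**Figure D3:**
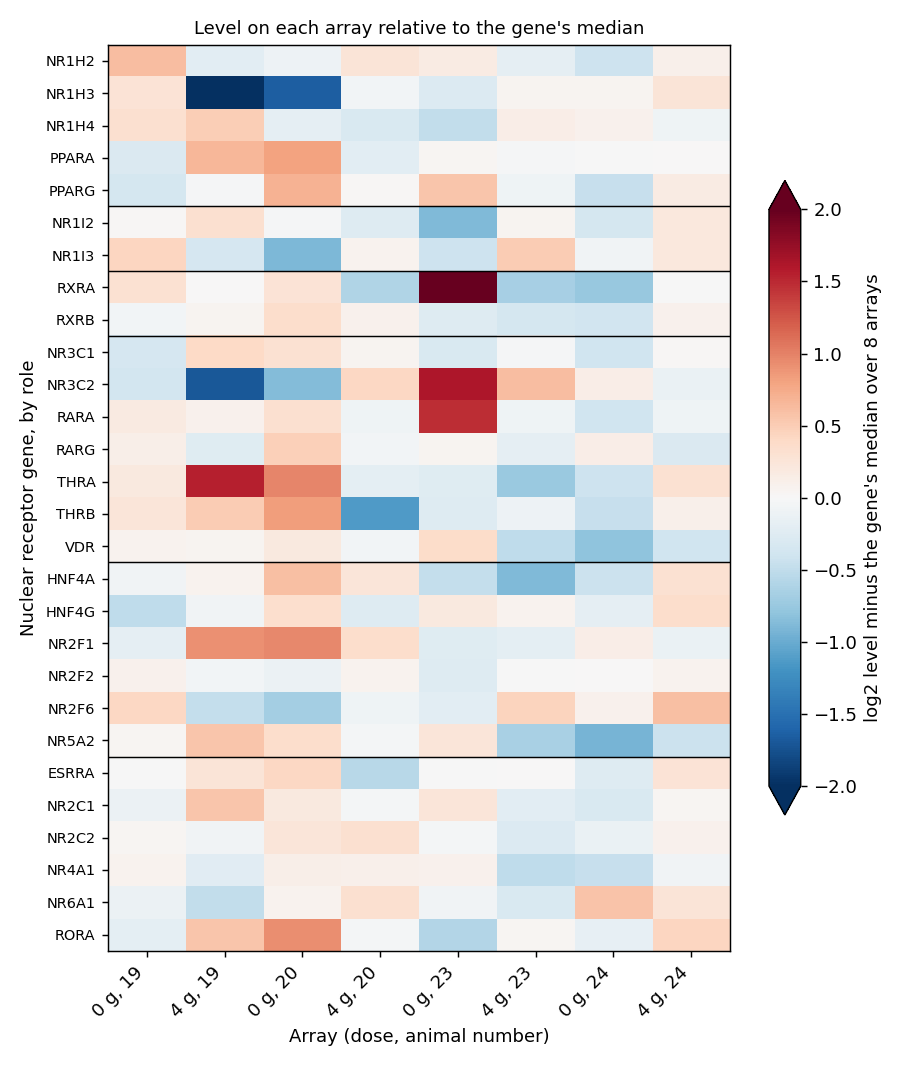
Heat map of 28 tested receptors (rows, grouped by role) on 8 arrays (columns, dose and animal). Colour gives the log2 level minus the receptor's own median over the 8 arrays, from blue (lower) to red (higher), with values beyond 2 units drawn at the ends of the scale. The columns of the dim arrays (animal 19 at 4 g, animal 20 at 0 g) share reds (NR2F1, THRA, RORA) and blues (NR1H3, NR3C2), and RXRA, NR3C2 and RARA are red on the 0 g array of animal 23.

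Many receptors had levels that set the dim arrays apart. Of the 28, 7 stood higher on both dim arrays than on each of the other 6 (NR2F1, NR3C1, NR5A2, PPARA, RORA, THRA and THRB), and 3 stood lower on both (NR1H3, NR2F6 and NR3C2). Over all probes the shares were 24.4% and 19.7%, so these 10 receptors are no larger a share than the background. Because the dim arrays are the 4 g array in animal 19 and the 0 g array in animal 20, these receptors have opposite differences in those animals. The sign was opposite in animals 19 and 20 for 23 of 28 receptors (82.1%) and for 75.8% of all probes. As a description, the differences of the 28 receptors in animal 19 correlated with those in animal 20 at r = −0.79, and at r = −0.70 over all tested probes, where the points share arrays and brightness and are not independent.

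The number of receptors higher at 4 g varied between animals. It was 15 in animal 19, 8 in animal 20, 11 in animal 23 and 23 in animal 24, of 28 each. The share of all probes higher in each animal was not counted, so these counts do not set receptors apart. The median difference was 0.13, −0.26, −0.17 and 0.41 in that order, against 0.09, −0.05, −0.01 and 0.10 over all tested probes. The 0 g array of animal 23 was the highest of all 8 for 4 receptors and the lowest for 5 (not counted over all probes). It lay more than 1 unit above each other array for 2 of 28 (RXRA and RARA), against 1.67% of all probes. The part of the acinar transcripts on this array in the values of RXRA, RARA, NR3C2 and ESR2 was not tested.

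No receptor passed the test between animals either. In the limma F-test on the animal terms, with dose in the model, 0 of 28 receptors had an adjusted p under 0.05 (smallest adjusted p = 0.985), as did 0% of all probes. At an unadjusted p under 0.05 there were 0 receptors, against 298 probes or 2.71% of all. The 2 arrays of an animal also lie in 1 row of the slide.

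Genes that act with the receptors or are known to answer to them were read from lists of pathway genes. In each of the 10 lists 0 genes had an adjusted p under 0.05 in the limma fit, as over all probes. The share of all probes higher at 4 g was 55.1%, with a median difference of 0.03. Genes of a list share arrays and are not independent, and no list was tested as a set. The target lists do not separate genes a receptor raises from genes it lowers, so their counts give no direction of receptor activity. Of 20 tested coregulators 14 were higher and 6 lower at 4 g (median 0.08), with NCOA7, a coactivator, at −0.25 (SE 0.23), NRIP1, a corepressor, at 0.46 (SE 0.52) and LPIN1, a coactivator of PPARA, at −0.47 (SE 0.42). Of 2 further nuclear receptors 2 were higher (median 0.45), the circadian repressors NR1D2 and NR1D1, which differed by 0.59 (SE 0.37) and 0.30 (SE 0.42).

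PPARA targets, genes of fatty acid oxidation and ketone production, had 14 of 21 higher and a median of 0.10. VNN1, a pantetheinase induced by PPARA, was 1 of only 2 genes in the 10 lists with an unadjusted p under 0.05 in the limma fit. Over all probes 1.09% had one, and 2 genes are too few to set the lists apart from that share. It stood at 0.45, 0.71, −1.86 and −1.46 at 0 g and at 0.89, 1.18, −0.19 and 0.32 at 4 g. Its difference of 1.09 (SE 0.33, limma adjusted p = 1) was positive in 4 of 4 animals. The gain was 0.44 in animal 19 and 0.47 in animal 20. It was 1.68 in animal 23 and 1.77 in animal 24, whose labels are in doubt. With no animal block, in animals 19 and 20 alone, and without animal 23 or 24, VNN1 no longer had an unadjusted p under 0.05. The same held, with no block, without the 0 g array of animal 23 and without the dim arrays. It had one in 12 of 18 settings. EHHADH, a peroxisomal oxidation enzyme, differed by 0.65 (SE 0.30) and the thiolase ACAA2 by 0.48 (SE 0.23), the latter higher in 4 of 4. FGF21, a fasting hormone of liver that was singled out after its values were seen, stood at −5.56, −0.28, 1.26 and 0.03 at 0 g and at −5.24, 0.41, −2.36 and −5.13 at 4 g. Its difference of −1.94 (SE 1.02) was 0.32 in animal 19 and 0.68 in animal 20, against −3.62 in animal 23 and −5.16 in animal 24.

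LXR targets had 4 of 10 higher and a median of −0.04, with the cholesterol exporters ABCA1 at −0.38 (SE 0.29) and ABCG1 at −0.27 (SE 0.26) and MYLIP, which degrades the LDL receptor, at −0.39 (SE 0.34). FXR targets, raised and lowered ones together, had 7 of 11 higher and a median of 0.23. The median of the FXR list was −0.31, 0.47, 0.99 and 0.36 in animals 19, 20, 23 and 24. Their bile acid exporter subunit SLC51B stood at 3.15, 3.15, 0.94 and 1.63 at 0 g and at 3.11, 2.47, 3.16 and 3.52 at 4 g, so that its difference of 0.85 (SE 0.53) came from animals 23 and 24 and was −0.36 in animals 19 and 20 alone. The canalicular pump ABCB11 differed by 0.41 (SE 0.33) and FETUB by 0.37 (SE 0.27).

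PXR and CAR targets had 12 of 18 higher and a median of 0.09. The drug-metabolising CYP2B6 nevertheless stood at −1.61, −3.29, −1.60 and −1.84 at 0 g and at −3.24, −1.81, −4.73 and −5.29 at 4 g. Its difference of −1.68 (SE 0.80) was negative in animals 19, 23 and 24 and 1.48 in animal 20. It was −0.43 with normexp, −0.08 in animals 19 and 20 alone, and −2.74 (without animal 20) to −1.09 (without animal 24) when an animal was left out. CYP2C87 differed by 0.59 (SE 0.49) and the drug efflux pump ABCB1 by 0.33 (SE 0.27).

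Glucocorticoid receptor targets had 7 of 13 higher and a median of 0.0033, with the tyrosine-degrading TAT at 0.37 (SE 0.30), the gluconeogenic PCK1 at −0.43 (SE 0.36) and the kinase SGK1 at −0.26 (SE 0.22). HNF4A targets had 11 of 12 higher and a median of 0.10. Their median difference was 0.35, −0.30, 0.26 and 0.55 in animals 19, 20, 23 and 24. OTC of the urea cycle was the other gene with an unadjusted p under 0.05 in the limma fit (difference 0.65, SE 0.27). Its difference was 0.53, 0.03, 1.16 and 0.89 in animals 19, 20, 23 and 24, and the labels of the last 2 are in doubt. In animals 19 and 20 alone it was 0.28, and without the 0 g array of animal 23 (no block) it was 0.39. OTC had an unadjusted p under 0.05 in 7 of 18 settings. Those without one included no animal block, normexp, quantile normalization, no filter and both of these fits. The apolipoprotein APOB differed by 0.47 (SE 0.36) and clotting factor F7 by 0.33 (SE 0.30). Retinoic acid, thyroid hormone and vitamin D targets had 5 of 9 higher and a median of 0.04, with the retinoic acid-degrading CYP26A1 at 0.53 (SE 0.39), the transglutaminase TGM2 at −0.86 (SE 0.60) and the corepressor HR at −0.37 (SE 0.34). Enzymes that supply retinoids and hormones had 6 of 8 higher and a median of 0.10, with LRAT, which stores retinol as esters, at 0.19 (SE 0.23), the retinol dehydrogenase RDH16 at 0.64 (SE 0.48) and ALDH1A2, which makes retinoic acid, at 0.14 (SE 0.23).

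Normexp background correction moved many of these sizes. Of 57 receptors and list genes named, 24 kept their sign and were over 1.5 times smaller with it, 5 were over 1.5 times larger and 6 turned. Among the smaller ones were NR1D2 at 0.10, CYP26A1 at 0.10, ABCB1 at 0.06, ABCB11 at 0.14, LPIN1 at −0.13, ABCA1 at −0.12, SGK1 at −0.12, CYP2C87 at 0.21 and EHHADH at 0.27, all on the log2 scale.

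**Figure D4:**
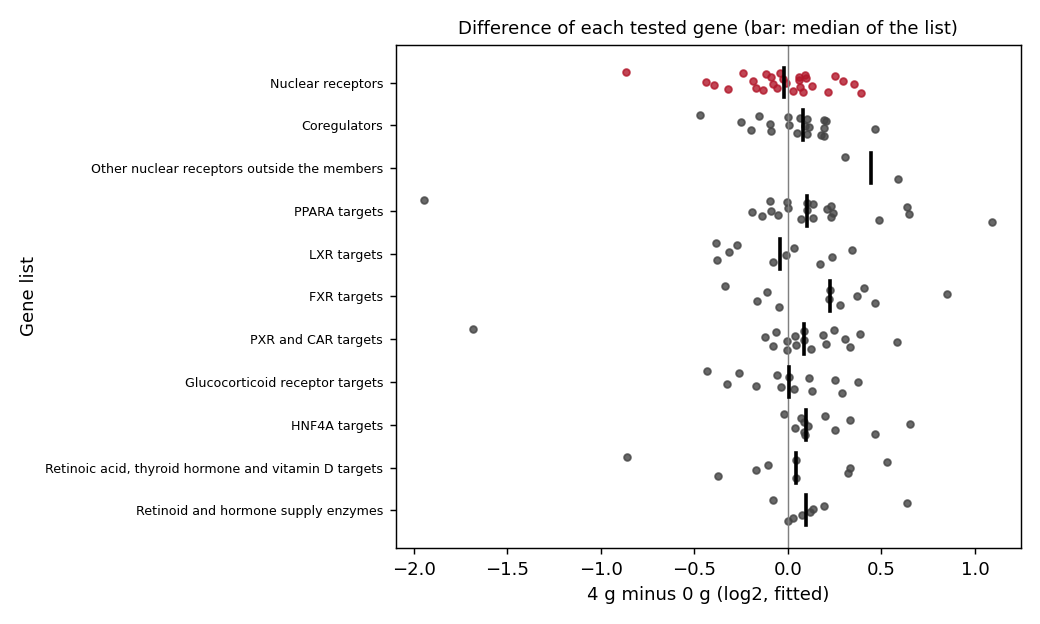
Fitted difference between 4 g and 0 g on the log2 scale (horizontal axis) for the 28 tested receptors (red) and for the tested genes of 10 lists of coregulators, further receptors, target genes and supply enzymes (grey). Each point is a gene and each vertical bar the median of its list. The medians lie between −0.04 and 0.45, and CYP2B6 and FGF21 stand far to the left.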

How the data were processed

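Liver RNA of 4 animals at 2 doses was measured on 8 one-colour Agilent arrays (1 slide), which makes 4 pairs. The intensity of each spot is the processed signal the authors deposited, background-subtracted and detrended by Feature Extraction 11.0.1.1 per the file headers (9.5 per the submitters' processing notes), with no scaling between arrays. The series table the authors deposited holds log2 values that correlate with these (r = 1 on each array) and are centred near the 75th percentile, with medians of −3.04 to −2.84.

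Processed signals were put on a log2 scale here and shifted by the 75th percentile of each array, 48 outlier spots were left out, and spots of a probe were averaged. A probe entered the test when 4 or more of the 8 arrays showed it well above background, which 10985 of 15008 did. Tests used lmFit and eBayes of limma 3.58.1 (R 4.3.3, files read with data.table version 1.17.8), 2-sided, blocked by animal, at a Benjamini-Hochberg adjusted p of 0.05. The script was tested on simulated data. The number of arrays limits the precision. Within an animal, deviations from the dose means correlated at −0.19, −0.18, 0.21 and 0.13, so the pairing rests on the animal numbers in the labels. An SD is the spread over 4 animals.

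Members take the array's own gene names. List genes were named through transcript accessions in a RefSeq table (assembly ARS-UCD2.0, names only) where it held them. All members with a probe are named, and of each list up to 3 genes with the smallest unadjusted p. Some genes of the lists are not reported here. The members, lists, markers and tests were chosen with earlier results of these data known. Normexp, quantile normalization, filters, array weights, left-out animals or arrays and the deposited table were tried as alternatives, and an array brightness covariate and animals 23 and 24 alone were added after the data had been seen.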

Additional observations from a re-analysis of the deposited data

Results flagged for a closer look

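In 56 groups of 4 arrays, 28 receptors at each dose, 5 groups held a value far from the other 3 by Dixon's ratio. The cutoff is nominally passed by about 1 in 20 groups of independent, normally distributed values. These groups share arrays, and the share over all probes was not counted, so the 5 do not set receptors apart from other genes. NR1H3 stood at −1.53 on the 4 g array of animal 19, against 0.72 to 1.02 in the other animals at that dose. RARA stood at −2.94 on the same array, above the other 3, which lay between −3.10 and −3.09. NR3C1 stood at 2.14 on the 0 g array of animal 20, against 1.44 to 1.54. NR4A1 stood at 0.19 on the 0 g array of animal 24, against 0.73 to 0.78. RXRB stood at 2.19 on the 4 g array of animal 23, against 2.60 to 2.63. The arrays of NR1H3, RARA and NR3C1 are the 2 dim ones, and the part of brightness in these single values was not tested.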

How the results depend on the processing

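No receptor had an adjusted p under 0.05 for dose in any of 18 settings, or between animals in any setting where that test was run, and over all probes the count for dose was 0 except 5 without the 2 dim arrays (no block). Probes with an unadjusted p under 0.05 numbered 17 with normexp, 186 with no filter, 362 with array weights, 255 with the brightness covariate, 16 in animals 19 and 20 alone, 451 in animals 23 and 24 alone, 50 without the 0 g array of animal 23 and 307 without the dim arrays. Leaving out an animal gave 58 (animal 23) to 404 (animal 19), receptors higher at 4 g from 8 (animal 24) to 18 (animals 20 and 23), and between animals 0 to 1 probes past the threshold. In animals 19 and 20 alone that count was 1. With no replicate block there were 103 probes with an unadjusted p under 0.05 and 0 adjusted, so the block changed no call at the adjusted threshold, while VNN1 and OTC lost and CYP2B6 gained an unadjusted p under 0.05. The receptor median lay between −0.12 and 0.13 over the settings. Of 28 receptors 8 kept their sign in every setting that gave a value: NR1I2, NR1I3, NR2F2, NR3C1, NR6A1, RARA, RARG and RXRA. Other signs turned, and the cause was not tested. With normexp these were ESRRA 0.017, HNF4A −0.065, HNF4G −0.082, NR2C1 −0.075, NRIP1 −0.060 and NR1D1 −0.078. With quantile normalization they were NR2C2 0.013 and PPARA 0.012. With array weights they were ESRRA 0.020, HNF4A −1e-04, NR1H3 0.18, NR2C1 −0.053, NR2F1 −0.047 and THRA −0.051. With the brightness covariate they were HNF4A −0.029, HNF4G −0.013, NR1H3 0.12, NR2F1 −0.022 and THRA −0.072. In animals 19 and 20 alone they were HNF4A −0.11, HNF4G −0.091, NR2F6 −0.15, NR5A2 0.070, RORA −0.10, RXRB −0.073, SLC51B −0.36, ABCB11 −0.14, TAT −0.12, F7 −0.18, RDH16 −0.17 and ALDH1A2 −0.10. In animals 23 and 24 alone they were ESRRA 0.28, NR1H2 0.077, NR1H3 0.26, NR2C1 −0.064, NR2F1 −0.11, THRB 0.36 and LRAT −0.006. Without the 0 g array of animal 23 they were HNF4A −0.10, NR1H4 −0.011, NR2F1 −0.069, NR3C2 0.18, NR5A2 0.044, PPARG 0.058, THRA −0.026, PCK1 0.040 and ALDH1A2 −0.040. Without the dim arrays they were ESRRA 6e-04, NR1H3 0.064, NR1H4 −0.049, NR2C1 −0.014, NR2C2 0.091, PPARA 0.006, PPARG 0.12, THRA −0.060 and PCK1 0.47. Leaving out each animal in turn gave HNF4A −0.21 to 0.17, HNF4G −0.097 to 0.28, NR1H2 −0.27 to 0.17, NR1H3 −0.69 to 0.70, NR2C1 −0.12 to 0.26, NR2C2 −0.089 to 0.062, NR2F1 −0.28 to 0.29, NR3C2 −0.85 to 0.014, THRA −0.32 to 0.52, ESRRA −0.23 to 0.27, NR5A2 −0.26 to 0.22, PPARA −0.36 to 0.30, PPARG −0.32 to 0.10, THRB −0.51 to 0.33, NR1H4 −0.037 to 0.23, NR4A1 −0.31 to 0.021, VDR −0.38 to 0.044, RXRB −0.080 to 0.16, NRIP1 −0.0056 to 1.02 and NR1D1 −0.15 to 0.72. A mean over all probes of a gene was not run, since each receptor has 1 probe. The 4 receptors well above background on 6 or 7 arrays could not be fitted with the filter on all 8.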
